A study of Arabidopsis thaliana with 8 samples.

Results

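The response of dark-grown wild-type seedlings of *Arabidopsis thaliana* to high zinc was read by setting the 2 arrays labelled wild-type high-Zn against the 2 labelled wild-type control, out of 8 arrays in the series. The arrays were taken by their labels. The probe sets were those in the upper 60% by mean intensity over all 8 arrays, 13648 of the 22746 that are not controls. That mean includes the dez arrays, and 2 of the 96 probe sets called below passed the filter only through them. Wild-type high-Zn seedlings were grown on a modified Hoagland medium with 100 µM zinc and wild-type control seedlings on the same kind of medium with 1 µM zinc. The other 4 arrays held dez high-Zn and dez control seedlings, of a mutant grown on the same 2 media; dez is known as a mutant of TRICHOME BIREFRINGENCE, a gene of wall polysaccharide acetylation, but the labels do not give its lesion. All seedlings were 7 days old, were kept in foil after a short exposure to light, and were harvested under dim green light. Each sample was a pool of about 45 whole seedlings and each group had 2 biological replicates, so the number of arrays limits the precision. RNA was hybridised to Affymetrix ATH1 arrays, where a probe set is a group of short probes for 1 transcript and its value is an intensity.

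Few probe sets were called for zinc in these seedlings, which does not show that the others were unchanged. An unadjusted limma p under 0.05 was reached by 1571 probe sets, most of which did not pass after adjustment. Of 13648 probe sets tested, 96 passed the test for zinc, 63 of them higher and 33 lower on high zinc than on control medium (0.703% called). The rises with named genes were led by lipid transfer proteins, GDSL lipases, class III peroxidases, hydroxyproline-rich glycoproteins of the cell wall and FACT, an enzyme of root waxes. Among the named falls whose call held without any 1 array, the largest were those of AT4G37220, a member of the WCOR413 family of cold acclimation proteins, OCT1, a transporter of carnitine and other organic cations, and XTH19, a wall-loosening enzyme. The tested genes of zinc uptake (2 of 16 listed) and of metal storage (1 of 23 listed) did not pass the test, and most of both lists could not be read.

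Zinc is a cofactor of many enzymes and is toxic in excess, when it competes with iron and other metals for transporters and binding sites. Plant roots take it up through ZIP transporters, bind it with nicotianamine, phytochelatins and metallothioneins, and move it into vacuoles through transporters such as those of the MTP and HMA families. In the root, suberin, a polyester of fatty acids, glycerol and ferulate with associated waxes, coats endodermal cells and limits the passage of ions. Suberised cells are known to express lipid transfer proteins, GDSL lipases and class III peroxidases, but all 3 are large families with members in many tissues. Dark-grown seedlings live on seed reserves and elongate their hypocotyl by loosening its walls.

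The arrays were alike in overall level, with medians of 36.5 and 34.8 on high zinc and 35.03 and 36.3 on control medium. Replicates correlated with r = 0.983 on high zinc and r = 0.984 on control medium over the tested probe sets, and with 0.989 in dez high-Zn and 0.992 in dez control (1 pair of arrays each). The SD of the log2 difference between replicates came to 0.237 in wild-type high-Zn and 0.230 in wild-type control, and to 0.193 in dez high-Zn and 0.156 in dez control. Wild-type control replicate 1 stood apart in 2 quality measures. Actin and GAPDH control probe sets at the 3′ end read above those at the 5′ end, more so where RNA is degraded, and this log2 gap was 1.60 and 1.46 on high zinc, against 1.93 and 1.51 on control medium. The 25S rRNA control had an intensity of 97.2 and 91.1 on high zinc, against 44.8 and 88.5 on control medium. In wild type the poly-A spike controls, RNAs usually added to the sample before labelling, went with the replicate number instead. Their mean log2 intensity was 7.47 and 7.98 on high zinc and 7.59 and 8.02 on control medium. In dez high-Zn the 3′ to 5′ gap was 1.16 and 1.14, 25S rRNA 442 and 1427, and the spikes 7.15 and 6.88. In dez control they were 1.51 and 1.30, 229 and 366, and 7.45 and 7.28. Every dez array thus read above every wild-type array in 25S rRNA. The part of these differences in the comparisons with dez was not tested. BGLU23, a root marker, had 3408 and 2827 on high zinc and 3701 and 3878 on control medium (log2 difference -0.29, limma adjusted p = 0.285). The root markers TIP2;3 and RCI3 were not analysed here, so the share of root tissue in the pools was not measured. The root hair markers EXPA7 and EXPA18 were dim, between 9.85 and 13.7 over the 4 arrays, and were not tested. In bulk RNA of whole seedlings, more cells of a type and more RNA per cell cannot be told apart.

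Differences were small for most transcripts. Over the 13648 probe sets the median log2 difference, high zinc minus control, was 0.0038 and the median size of the difference was 0.11, about as large as the median standard error of 0.12. The smallest difference that passed was 0.52 on the log2 scale. Among the 96, the median was 0.90 for the 63 higher (0.462% called) and -0.85 for the 33 lower (0.242% called), and 37 reached at least a factor of 2 on the log2(intensity + 16) scale (0.271% called), 25 up and 12 down. In the plot of all probe sets by level, the 96 had means between 5.30 and 9.99 on the log2(intensity + 16) scale, and no brighter probe set was called. Mean intensities of the 63 lay between 19.3 and 1194 on high zinc and between 4.77 and 425.9 on control medium, and those of the 33 between 17.0 and 945 on high zinc and between 53.5 and 1463 on control medium. In all 96, both high-Zn arrays lay on one side of both control arrays; over all tested probe sets both high-Zn arrays were above in 21.1% and below in 16.7%. The call used limma with Benjamini-Hochberg adjustment over all tested probe sets, a threshold of 0.05 and a spread shared over the 8 arrays. With only the 4 wild-type arrays, whose replicates lay farther apart than those of dez, 26 probe sets passed (0.191% called), 20 higher and 6 lower, all of them among the 96. With the spread weighted by genotype 62 passed, all among the 96.

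**Figure D1:**
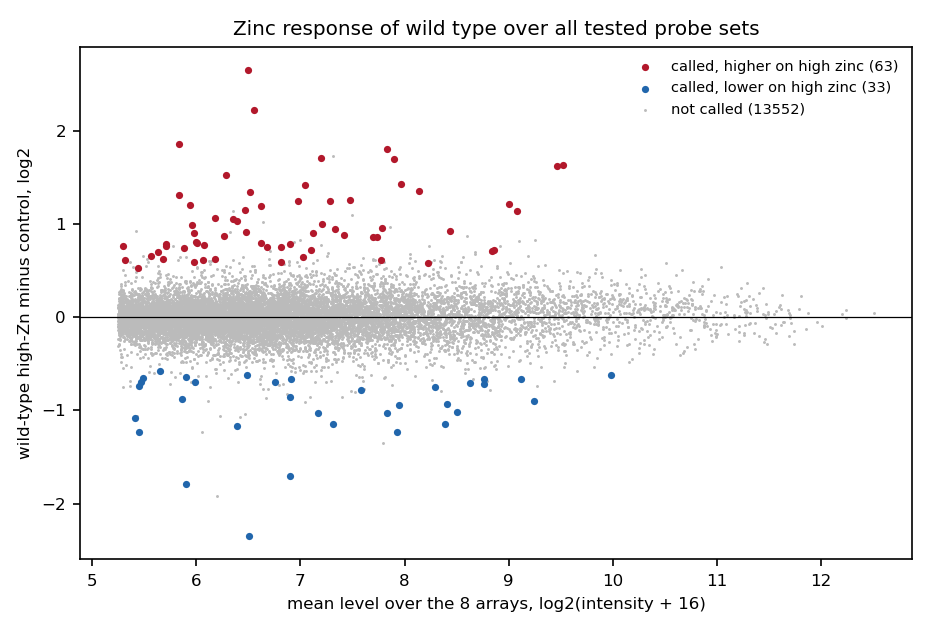
Each point is 1 of 13648 probe sets; the x axis is the mean log2(intensity + 16) over the 8 arrays and the y axis the log2 difference of wild-type high-Zn minus wild-type control. The 63 called higher (red) reach 2.65 and the 33 called lower (blue) reach -2.34, while most probe sets (grey) lie close to 0.

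Of the 96 probe sets, 39 name 1 gene, 29 higher (0.402% of 7218 named genes) and 10 lower (0.139%). The other 57 are not named here. Roles are given below where they are well known; for genes with a locus number only, the family is that of the predicted protein.

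Lipid transfer proteins are small cysteine-rich proteins that bind lipids outside the plasma membrane, and 2 of them gave the largest rises. AT3G58550 had an intensity of 243 and 258 on high zinc, against 25.3 and 27.6 on control medium. Its log2 rise was 2.65 with an SE of 0.13 (n = 2 arrays a group; limma, adjusted p = 1.81e-05), and even the closest pair of arrays differed by a factor of 8.81. AT2G18370 had 193 and 201 on high zinc and 30.3 and 29.0 on control medium, a rise of 2.22 ± 0.15 (limma adjusted p = 0.000113). Both genes were clear of the control arrays by more than any replicate difference. AT5G13900 had 81.6 and 104.8 on high zinc and 46.6 and 48.1 on control medium (log2 0.78, limma adjusted p = 0.0226). AT2G48130 had 189 and 206 on high zinc and 116 and 111 on control medium (log2 0.72, limma adjusted p = 0.0259). Of the 19 tested members of the family, out of 70 listed and 36 on the array, 4 rose and none fell (0.462% higher and 0.242% lower over all probe sets). The median difference of the 19 was 0.43, against 0.0038 over all probe sets, and 17 of the 19 were positive, against 51% over all probe sets. This family, like the GDSL lipases and peroxidases below, was chosen with earlier results of these data known. Its members were filled in after the data were in hand, so such counts describe a family and test nothing. Only AT3G58550 and AT2G18370 passed without wild-type control replicate 2 or without wild-type high-Zn replicate 2, so the count was then 2. Without wild-type control replicate 1, AT5G13900 and AT2G48130 missed too (limma adjusted p = 0.0777 and 0.0687), and the count was 3 because AT1G62500 passed. AT2G48130 was also lost without wild-type high-Zn replicate 1 (limma adjusted p = 0.0586). Over the 8 fits with 1 array left out, the limma adjusted p reached 0.12 for AT5G13900 and 0.159 for AT2G48130.

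FACT (AT5G63560) makes alkyl hydroxycinnamates, waxes associated with suberin, by joining caffeate to fatty alcohols. Its intensity was 115 and 99.3 on high zinc, against 15.8 and 20.1 on control medium, and it rose by 1.86 ± 0.15 (limma adjusted p = 0.000745). FACT was the only 1 of 15 listed genes of suberin and root wax that could be tested, so no count can be given for suberin synthesis. SGN3, listed by RefSeq as GSO1, is a receptor kinase needed for a closed Casparian strip, the ring that seals the endodermis. Its groups were close, with 103 and 107 on high zinc and 104 and 108 on control medium (log2 -0.01, 95% interval -0.25 to 0.23, limma adjusted p = 0.985). The endodermal markers CASP1, CASP2, CASP4, ESB1, MYB36 and SCR were not analysed here, so whether endodermal RNA moved with FACT was not tested.

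GDSL lipases are secreted esterases and acyltransferases, some of which build or degrade cutin and suberin. AT2G23540 had 427 and 322 on high zinc, against 111 and 148 on control medium, and rose by 1.43 ± 0.21 (limma adjusted p = 0.0134). AT5G37690 had 112 and 90.2 on high zinc and 29.8 and 29.9 on control medium, a rise of 1.35 ± 0.14 (limma adjusted p = 0.00163). AT1G74460 had 223 and 229 on high zinc and 80.9 and 91.3 on control medium, a rise of 1.25 ± 0.13 (limma adjusted p = 0.00186). In each of the 3 the lower high-Zn array was above the higher control array by more than the gap between the control arrays. AT3G05180 rose less, with 68.1 and 76.6 on high zinc and 44.1 and 40.8 on control medium (log2 0.59, limma adjusted p = 0.0355). Its call was lost when any 1 of the 8 arrays was left out, with limma adjusted p between 0.0592 and 0.207. Of 31 tested GDSL lipases, out of 112 listed and 73 on the array, these 4 passed as higher and none as lower. Over all probe sets 0.462% were called higher and 0.242% lower. The family's median was 0.09, and its lowest difference was -0.72, which did not pass. Both high-Zn arrays were above both control arrays in 13 of the 31 and below in 3 (21.1% and 16.7% over all probe sets). The other 27 did not pass. Without wild-type control replicate 1 only AT5G37690 and AT1G74460 passed, a count of 2, and AT2G23540 then had limma adjusted p = 0.0587. AT2G23540 also missed without wild-type high-Zn replicate 1, with limma adjusted p = 0.0604.

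Class III peroxidases are secreted heme enzymes that cross-link phenolic compounds of lignin and suberin and also make reactive oxygen. AT4G36430 had 305 and 346 on high zinc, against 70.2 and 113 on control medium, and rose by 1.69 ± 0.22 (limma adjusted p = 0.00898). Its control arrays differed from each other by more than its high-Zn arrays did, but the groups did not overlap. AT1G68850 had 84.4 and 60.5 on high zinc and 26.9 and 29.5 on control medium (log2 0.99 ± 0.13, limma adjusted p = 0.00935). AT2G35380 had 97.6 and 84.1 on high zinc and 37.5 and 44.2 on control medium (log2 0.91 ± 0.12, limma adjusted p = 0.00916). PRX25 (AT2G41480) had 252 and 288 on high zinc and 131 and 147 on control medium (log2 0.88 ± 0.12, limma adjusted p = 0.0113). PRX25 missed the threshold without wild-type high-Zn replicate 2, with limma adjusted p = 0.0598, while AT5G39580 passed in that fit; the other 3 passed without any 1 of the 8 arrays. Of 34 tested peroxidases, out of 73 listed and 55 on the array, these 4 passed as higher and none as lower. Over all probe sets 0.462% were called higher and 0.242% lower. The family's median was 0.13. Its lowest difference was -1.35, exceeded in size only by AT4G36430, and did not pass. Both high-Zn arrays were above both control arrays in 15 of the 34 and below in 2 (21.1% and 16.7% over all probe sets). Some of the 34 had wild-type means below the filter and were tested only through brighter dez arrays. With only the 4 wild-type arrays 1 of the 34 passed (0.191% called over all probe sets).

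Hydroxyproline-rich glycoproteins are structural proteins of the cell wall. AT4G38080 had 489 and 500.3 on high zinc, against 166 and 203 on control medium, and rose by 1.36 ± 0.13 (limma adjusted p = 0.00103). AT5G09480 had 124 and 101 on high zinc and 32.3 and 48.5 on control medium, a rise of 1.20 ± 0.16 (limma adjusted p = 0.00916). AT2G22510 had 124 and 129 on high zinc and 53.5 and 51.6 on control medium, a rise of 1.06 ± 0.11 (limma adjusted p = 0.0015). These were all 3 tested members of a list of 5 that was written after their values were seen, so the list is no evidence of a family response. All 3 passed without any 1 of the 8 arrays.

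Among the remaining named rises, AT5G55180, a glycosyl hydrolase of family 17, had 409 and 429 on high zinc, against 239.9 and 189.8 on control medium (log2 0.92 ± 0.13, limma adjusted p = 0.0114). It missed the threshold without wild-type control replicate 2 (limma adjusted p = 0.064) and without wild-type high-Zn replicate 2 (limma adjusted p = 0.0591). AT1G56320, a gene of unknown role, had 182 and 182 on high zinc and 85.4 and 80.8 on control medium (log2 1.00 ± 0.12, limma adjusted p = 0.00374), with little spread within either group. EXPA4, an expansin, had 210.2 and 249 on high zinc and 145 and 143 on control medium (log2 0.61, limma adjusted p = 0.0434). Expansins loosen cell walls without cutting them. BCAT4, which starts the chain elongation of methionine for aliphatic glucosinolates, was dim in both groups, with 29.9 and 29.0 on high zinc and 12.4 and 8.53 on control medium (log2 0.78, limma adjusted p = 0.0154). Its mean over the wild-type arrays was below the filter, which it passed through its dez arrays. EXPA4 kept its call in 1 of the 8 fits with 1 array left out and BCAT4 in 5, with limma adjusted p up to 0.246 and 0.107. The other 9 named rises had log2 differences of 0.63 to 0.87. They were AT4G28940, AT4G24140, AT5G49350 and AT4G36610, ARPN, a plantacyanin (a small copper protein of the extracellular space), AT2G03200, an aspartyl protease, AT2G21100, a dirigent-like protein, AT1G49960, a nucleobase permease, and Cpn60beta2, a plastid chaperonin. Each of the 9 lost the call without at least 1 of the 8 arrays, AT2G03200 only without wild-type control replicate 2 (limma adjusted p = 0.057).

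**Figure D2:**
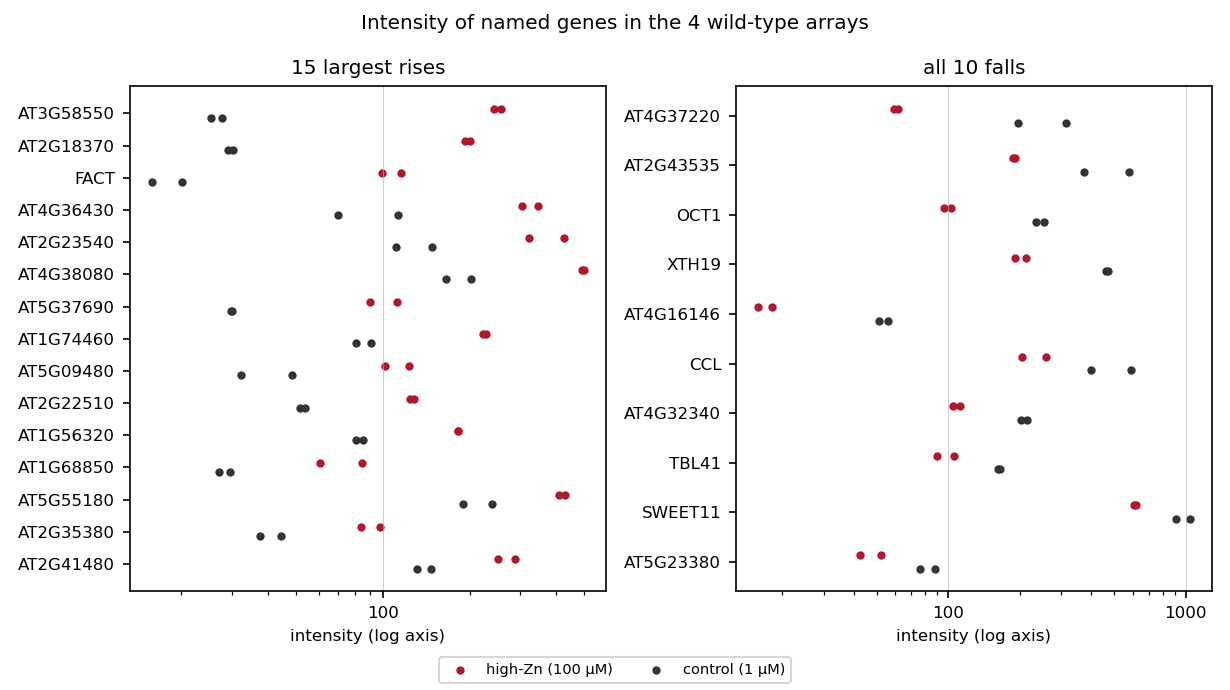
Each point is the intensity of a named gene on 1 wild-type array, on a log axis, with high-Zn (100 µM zinc) in red above control (1 µM zinc) in black; the left panel holds the 15 largest rises and the right panel all 10 falls. In every gene the 2 red points lie on one side of the 2 black points, farthest apart in AT3G58550, where the arrays read 243 and 258 on high zinc and 25.3 and 27.6 on control medium.

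The named falls were fewer and more varied in role. AT4G37220, of the WCOR413 family of membrane proteins known from cold acclimation, had 59.1 and 61.8 on high zinc, against 196 and 313 on control medium. Its log2 difference was -1.79 ± 0.18 (limma adjusted p = 0.00127), and its control arrays were the more spread. OCT1, a plasma membrane transporter of carnitine and other organic cations, had 103 and 96.3 on high zinc and 255 and 234 on control medium (log2 -1.17 ± 0.11, limma adjusted p = 0.00103). XTH19, which cuts and rejoins xyloglucan chains of the wall, had 214 and 192 on high zinc and 472 and 462 on control medium (log2 -1.14 ± 0.11, limma adjusted p = 0.00103). AT4G16146, of unknown role, was close to the dim end on high zinc, with 18.1 and 15.8, against 55.9 and 51.1 on control medium (log2 -1.08 ± 0.14, limma adjusted p = 0.00898). These 4 passed without any 1 of the 8 arrays.

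The other 6 named falls each lost the call without some arrays. AT2G43535, a small cysteine-rich protein of the defensin type, had 188 and 191 on high zinc, against 375 and 579.6 on control medium (log2 -1.23 ± 0.19, limma adjusted p = 0.019). CCL, whose short-lived transcript is known to cycle over the day, had 206 and 259 on high zinc and 401 and 589 on control medium (log2 -1.02 ± 0.19, limma adjusted p = 0.0368). In both genes the control arrays differed widely and replicate 2 was the higher, and the adjusted p over the 8 fits with 1 array left out reached 0.0907 for AT2G43535 and 0.197 for CCL. AT4G32340, of the tetratricopeptide repeat type, had 105 and 113 on high zinc and 215 and 203 on control medium (log2 -0.85 ± 0.15, limma adjusted p = 0.0304). SWEET11, a sucrose exporter that supplies the phloem, had 605 and 621 on high zinc and 913 and 1047 on control medium (log2 -0.66 ± 0.11, limma adjusted p = 0.0257). TBL41, a member of the family of wall polysaccharide acetyltransferases, had 89.8 and 106 on high zinc and 162 and 166 on control medium (log2 -0.67 ± 0.11, limma adjusted p = 0.0276). AT5G23380, of unknown role, had 42.7 and 52.0 on high zinc and 76.5 and 88.3 on control medium (log2 -0.64 ± 0.11, limma adjusted p = 0.0314). For these last 4 the adjusted p with 1 array left out reached between 0.134 and 0.203. Of 5 tested small cysteine-rich peptides only AT2G43535 passed (0.242% lower over all probe sets), and the list's median was -0.06. The other members PDF1.4, LCR68 and AT2G43530 had log2 differences of 0.35, -0.22 and -0.06. TBL41 was the only 1 of 12 tested TBL genes to pass, and SWEET11 the only 1 of 5 tested SWEET genes (0.703% called in either direction over all probe sets).

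The largest fall among the 96 belonged to a probe set that is not named, and another such probe set came next after AT4G37220. Probe set 266336_at had 25.9 and 32.3 on high zinc, against 230.5 and 196 on control medium, a difference of -2.34 ± 0.13 (limma adjusted p = 2.4e-05). Probe set 259723_at had 44.1 and 54.7 on high zinc and 239 and 160.0 on control medium, a difference of -1.70 ± 0.17 (limma adjusted p = 0.00127). The 2 largest rises without a name were 258218_at and 246099_at. The first of them had 218 and 241 on high zinc and 58.8 and 50.2 on control medium (log2 1.80 ± 0.17, limma adjusted p = 0.00103). The second had 105 and 149 on high zinc and 29.8 and 24.5 on control medium (log2 1.71 ± 0.15, limma adjusted p = 0.00103). The 34 unnamed rises lay between 0.52 and 1.80 with a median of 0.93, and the 23 unnamed falls between -2.34 and -0.58 with a median of -0.75. The named rises lay between 0.59 and 2.65 and the named falls between -1.79 and -0.64.

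Genes of zinc and metal handling showed no change that passed, as far as they could be read. ZIP6, a zinc transporter of the ZIP family, had 58.8 and 64.7 on high zinc, against 61.3 and 61.9 on control medium (log2 0.00, 95% interval -0.23 to 0.23, limma adjusted p = 0.998). bZIP19, the factor that turns on zinc uptake genes when zinc is short, had 175 and 179 on high zinc and 193 and 167 on control medium (log2 -0.02, 95% interval -0.28 to 0.24, limma adjusted p = 0.968). ZIP9 was below the filter on dim probe sets, with 8.27 and 11.1 on high zinc and 7.45 and 6.39 on control medium. MTP11, a manganese transporter of the MTP family, had 136 and 135 on high zinc and 119 and 118 on control medium (log2 0.17, 95% interval -0.07 to 0.41, limma adjusted p = 0.587). MTP8 and MTP2 were below the filter, at under 7 on each of the 4 arrays. MT1C, a metallothionein, was bright at 2585 and 2281 on high zinc and 1999 and 2773 on control medium, where the control arrays alone spanned both high-Zn values (log2 0.04, 95% interval -0.30 to 0.39, limma adjusted p = 0.946). Only 2 of 16 listed zinc uptake genes, 1 of 23 metal storage genes and 1 of 5 metallothioneins were tested, so these values do not describe the pathways as a whole.

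Iron deficiency genes had positive differences, but none passed. All 7 tested of 26 listed were positive, with a median of 0.23 and a range of 0.10 to 0.51, and in 5 of them both high-Zn arrays were above both control arrays (21.1% over all probe sets). F6'H1 (AT3G13610), which makes the precursor of coumarins secreted for iron uptake, had 293 and 238 on high zinc, against 195 and 168 on control medium (log2 0.51 ± 0.15, limma adjusted p = 0.206). AT1G47400, which encodes a short iron-responsive peptide, had 38.9 and 57.1 on high zinc and 33.6 and 27.2 on control medium (log2 0.45 ± 0.18, limma adjusted p = 0.359). AT1G74770, a ubiquitin ligase of the BRUTUS type that restrains the iron response, had 103 and 96.8 on high zinc and 64.4 and 87.6 on control medium (log2 0.35 ± 0.15, limma adjusted p = 0.403). AT3G12900, which hydroxylates the coumarin scopoletin, had 17.1 and 20.0 on high zinc and 15.9 and 11.0 on control medium (log2 0.23 ± 0.14, limma adjusted p = 0.584). The 3 tested oxidative stress genes were GSTU25, AT2G21640 and STZ, and they had differences between 0.07 and 0.30 with none past the threshold. STZ, also called ZAT10, is a zinc finger repressor induced by many stresses. WRKY53, a defence and senescence factor, was dim, with 19.5 and 12.4 on high zinc and 16.2 and 17.0 on control medium (log2 -0.04, 95% interval -0.30 to 0.22, limma adjusted p = 0.933).

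The wall-loosening genes that passed went both ways. Of 7 tested expansins and xyloglucan enzymes, out of 22 listed, EXPA4 rose and XTH19 fell, with a median of 0.23 (0.462% higher and 0.242% lower over all probe sets). XTH18, the neighbouring relative of XTH19, had 295 and 255 on high zinc, against 384 and 432 on control medium (log2 -0.54 ± 0.11, limma adjusted p = 0.0703). EXPB3, an expansin of the beta class, had 63.8 and 80.4 on high zinc and 46.5 and 45.2 on control medium (log2 0.50 ± 0.14, limma adjusted p = 0.158). XTH18 and XTH19 are close copies, and whether their probe sets read each other's transcripts was not tested. The 4 tested auxin genes, IAA29, HAT2, WES1 and GH3.3, had a median of -0.35 and none passed. IAA29, a repressor of auxin signalling, had 108 and 91.7 on high zinc and 143 and 143 on control medium (log2 -0.46 ± 0.13, limma adjusted p = 0.19).

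Genes of sugar transport and of the response to sugar shortage in the dark had lower values on high zinc, but only SWEET11 fell past the threshold. All 4 tested, of 14 listed, had both high-Zn arrays below both control arrays (16.7% over all probe sets), with a median of -0.68. IVD, which breaks down leucine in mitochondria, had 192 and 161 on high zinc, against 241 and 361 on control medium (log2 -0.70 ± 0.18, limma adjusted p = 0.13). MCCA, the biotin subunit of the next enzyme in that path, had 237 and 155 on high zinc and 260.0 and 456 on control medium (log2 -0.80 ± 0.23, limma adjusted p = 0.201). MCCB, its partner subunit, had 242 and 186 on high zinc and 245 and 339.5 on control medium (log2 -0.42 ± 0.16, limma adjusted p = 0.347). In IVD, MCCA and MCCB control replicate 2 was the high array and high-Zn replicate 2 the low one. Without wild-type control replicate 1, IVD and MCCA passed, with limma adjusted p = 0.033 and 0.036. That array is the one that stood apart in the 3′ to 5′ gap and in 25S rRNA, and the part of either in this result was not tested.

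Most photosynthesis genes, which light induces, had positive differences, but none passed. The 6 tested genes of the photosystems and antenna had a median of 0.24, the 3 of the Calvin cycle 0.25 and the 6 of chlorophyll synthesis 0.10. The last list held 2 negative members. The single tested genes of the lists for ABA, ER stress, lignin, nitrate, secondary wall and seed storage had differences between -0.78 and 0.28, and none passed. Of the 35 lists, 26 had at least 1 tested gene, and 17 of those 26 had no gene past the threshold. Among gene families that share a symbol, none of 28 tested UGT glycosyltransferases, 8 ATG autophagy genes or 8 ALDH dehydrogenases passed. With only 0.703% called over all probe sets, such counts say little about a family. Every tested member of the ATG and ALDH families was negative, with medians of -0.15 and -0.16, while 51% of all probe sets were positive.

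**Figure D3:**
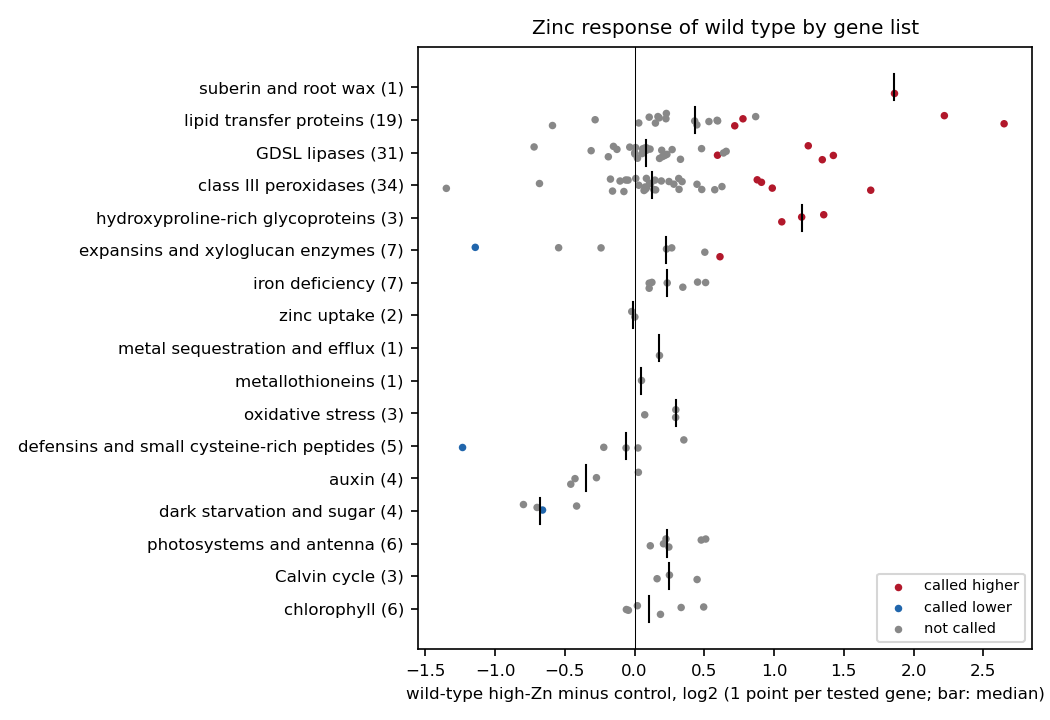
Each point is 1 tested gene of a list and the x axis is its log2 difference, wild-type high-Zn minus wild-type control; black bars are medians, red and blue points are genes called higher and lower, and the number of tested genes stands in brackets. The called genes sit at or near the right ends of the lipid transfer protein, GDSL lipase and peroxidase lists, while the medians of the 3 lists are 0.43, 0.09 and 0.13.

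The same media changed 4645 of the 13648 probe sets in dez (34% called), 2271 higher (16.6%) and 2374 lower (17.4%). No array is shared between the zinc comparison of wild type and that of dez. Of the 63 probe sets higher in wild type, 18 were higher (28.6%) and 25 lower (39.7%) on high zinc in dez, and their median difference was -0.08 in dez, against 0.90 in wild type. Of the 33 lower in wild type, 3 were higher (9.09%) and 19 lower (57.6%) in dez, with a median of -0.64 in dez, against -0.85 in wild type. The interaction of zinc and genotype, the zinc difference in dez minus that in wild type, passed for 73 of the 96; over all probe sets it passed for 2653 (19.4% called), negative in 10.6% and positive in 8.87%. The 96 were chosen on the wild-type difference, which is part of the interaction, so this count is a description.

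Several of the largest wild-type rises were smaller, or turned round, in dez. AT3G58550 had 95.0 and 72.5 in dez high-Zn and 47.7 and 39.3 in dez control, a rise of 0.74 ± 0.13 (limma adjusted p = 0.00159), against 2.65 in wild type (interaction -1.91 ± 0.19, limma adjusted p = 0.000124). AT2G18370 had 70.3 and 86.8 in dez high-Zn and 84.4 and 58.5 in dez control, where the groups overlapped (interaction -2.10 ± 0.21, limma adjusted p = 0.000134). AT4G38080 had 162 and 192 in dez high-Zn and 290.2 and 324 in dez control, a log2 difference of -0.75 where wild type rose (interaction -2.10 ± 0.18, limma adjusted p = 6.58e-05). AT2G23540 had 139 and 216 in dez high-Zn and 322 and 392 in dez control, a log2 difference of -0.97 (interaction -2.40 ± 0.30, limma adjusted p = 0.000441). The dez control arrays of AT4G38080 thus read above the wild-type control arrays and below the wild-type high-Zn arrays, and those of AT2G23540 overlapped the wild-type high-Zn arrays. Of the 29 named rises, 8 also rose in dez, 11 fell and 10 did not pass (16.6% higher and 17.4% lower over all probe sets). Their interaction was negative in 23, positive in 2 and not called in 4 (10.6% negative and 8.87% positive over all probe sets).

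Other wild-type rises also passed in dez, some with larger differences there. AT4G36430 had 548 and 839 in dez high-Zn and 126 and 103 in dez control, a rise of 2.42 ± 0.22 (limma adjusted p = 2.35e-05); its interaction was 0.73 ± 0.31 and did not pass (limma adjusted p = 0.136). PRX25 rose by 0.70 in dez and EXPA4 by 0.71, with interactions of -0.18 and 0.10 that did not pass (limma adjusted p = 0.524 and 0.725). BCAT4 had 1146 and 1165 in dez high-Zn and 121 and 142 in dez control, far above any wild-type array and the reason it passed the filter, and its interaction was 2.21 ± 0.17 (limma adjusted p = 3.17e-05). ARPN had 631 and 584 in dez high-Zn and 159 and 139 in dez control (interaction 1.06 ± 0.18, limma adjusted p = 0.00238). Probe set 246099_at had 1411 and 1647 in dez high-Zn and 31.3 and 35.6 in dez control, a difference of 4.96, against 1.71 in wild type. Probe set 266336_at fell in both genotypes, with differences of -2.50 in dez and -2.34 in wild type, and its interaction did not pass (limma adjusted p = 0.613).

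Among the falls, OCT1 had 8.59 and 9.03 in dez high-Zn and 53.3 and 47.3 in dez control, a difference of -1.42, against -1.17 in wild type (interaction limma adjusted p = 0.299). SWEET11 differed by -0.71 in dez and by -0.66 in wild type, and CCL differed by -0.93 in dez and by -1.02 in wild type. XTH19 went the other way, with 397 and 419.5 in dez high-Zn and 260.2 and 277 in dez control, a rise of 0.58 ± 0.11 (interaction 1.72 ± 0.15, limma adjusted p = 6.58e-05). AT4G37220 was dim in dez on both media, with 7.90 and 9.99 in dez high-Zn and 11.6 and 7.74 in dez control, so its zinc difference could be read in wild type only. Of the 10 named falls, 5 also fell in dez, 1 rose and 4 did not pass (17.4% lower and 16.6% higher over all probe sets).

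**Figure D4:**
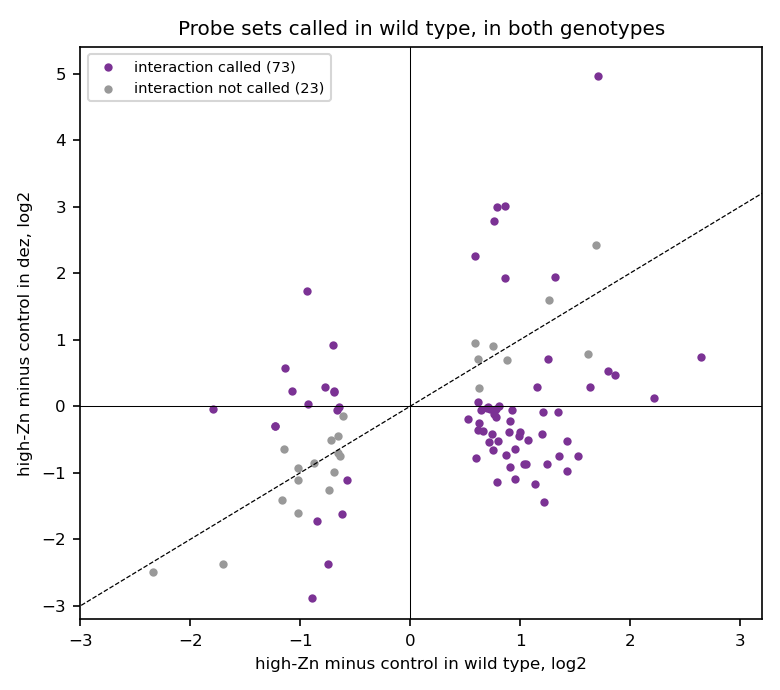
Each point is 1 of the 96 probe sets called for zinc in wild type; the x axis is its log2 difference in wild type (high-Zn minus control), the y axis the same difference in dez, and the dashed line marks equal differences. The 73 with a called interaction (purple) lie mostly below the line on the right, and most of their rises in wild type are near or below 0 in dez; the 23 others (grey) lie closer to the line.

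How many probe sets passed depended on single arrays. Without wild-type control replicate 2 the count was 49, with 42 of the 96 among them, and without wild-type control replicate 1 it was 106, with 60 of the 96. Without wild-type high-Zn replicate 1 it was 68, with 47 of the 96, and without wild-type high-Zn replicate 2 it was 63, with 50 of the 96. Leaving out a dez array, which alters only the shared spread, gave 74 without either dez control array and 54 without either dez high-Zn array. Of the 39 named genes, 16 passed without any 1 of the 8 arrays, 12 of the rises and 4 of the falls, and 23 lost the call without at least 1 array. Under all 25 other settings tried, 13 probe sets passed each time, among them AT3G58550, AT2G18370, AT4G36430, AT4G38080, AT5G37690 and AT1G74460. FACT and AT4G37220 passed in each of the 24 settings in which they were tested. The plot of calls by the arrays used shows that rises were the larger part of the calls in each of these fits.

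**Figure D5:**
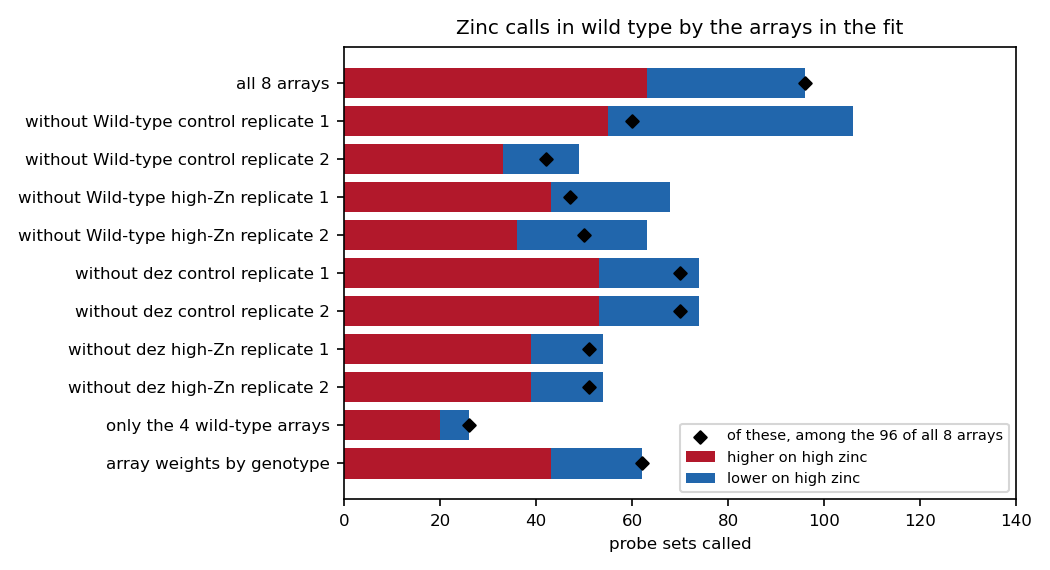
Bars give the number of probe sets called for zinc in wild type, higher (red) and lower (blue) on high zinc, for the fit on all 8 arrays and for fits on fewer arrays or with the spread weighted by genotype; diamonds mark how many of them are among the 96 of all 8 arrays. The counts range from 26 with only the 4 wild-type arrays to 106 without wild-type control replicate 1.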

How the data were processed

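Each of the 8 pools of seedlings was read on 1 ATH1 array with biotin-labelled cRNA, per the labels' protocols. The authors deposited a linear intensity for every probe set of every array. MAS5 is named, without role or version, per the submitters' processing notes, and the scaling of the intensities is not stated there. No detection calls were used, so dim values have no stated background.

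After removal of 64 control probe sets of 22810, values were analysed as log2(intensity + 16), a scale that shrinks differences of dim genes. Probe sets ranking in the brightest 60% by 8-array mean were tested (13648). A linear model with a mean for each of the 4 groups was fitted with limma 3.58.1 (R 4.3.3; lmFit, contrasts.fit, and eBayes with trend), leaving 4 residual degrees of freedom and a prior of 6.28. P-values are two-sided and Benjamini-Hochberg adjusted within a contrast over every tested probe set. The script was tested on simulated data with known changes. An SE is limma's, with 2 arrays a group. Replicate numbers are not stated to pair the pools, so no block was fitted.

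Gene names follow the platform's probe annotation, with symbols from RefSeq (TAIR10.1) matched on gene identifier. A single gene was listed for 13513 probe sets, several for 503 and none for 8730; a name was available for 53.2% of those tested. Families of genes with a locus number only come from general knowledge of the species, not from the files. Genes named are those of single-gene probe sets past the threshold whose groups do not overlap (values by array for the 15 largest rises and up to 15 falls) and, in each list, the 4 tested genes lowest in adjusted p. The genes and lists were chosen with earlier results of these data known. The members of 4 families (peroxidases, lipid transfer proteins, GDSL lipases, hydroxyproline-rich glycoproteins) were filled in, and MTP11 was added, after the table was in hand. Of 671 list genes, 241 had a probe set naming them alone and 146 were tested. Some of the tested list genes had wild-type means below the filter and passed it only through brighter dez arrays. Counts and medians of the lists include them. Lists are described by counts and medians, with no test of the list. Alternatives were other scalings, pseudocounts, filters, priors, thresholds, arrays left out, a replicate block, fewer arrays, weights by genotype and a 3′-5′ covariate; the crossed pairing was chosen after seeing the data.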

Additional observations from a re-analysis of the deposited data

Results flagged for a closer look

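The zinc difference in dez minus that in wild type (the interaction, limma, log2 scale) passed the threshold for 73 of the 96 probe sets called in wild type, and for 43 genes named here. It was negative for 23 named rises (10.6% negative over all probe sets). Lipid transfer proteins had -1.91 for AT3G58550, -2.10 for AT2G18370, -1.25 for AT2G48130 and -0.94 for AT5G13900. FACT had -1.39. GDSL lipases had -2.40 for AT2G23540, -2.11 for AT1G74460, -1.43 for AT5G37690 and -1.37 for AT3G05180. Peroxidases had -1.43 for AT1G68850 and -1.13 for AT2G35380. Hydroxyproline-rich glycoproteins had -2.10 for AT4G38080, -1.92 for AT2G22510 and -1.61 for AT5G09480. The others were AT2G03200 at -1.60, AT1G56320 at -1.39, AT1G49960 at -1.31, AT5G49350 at -1.03, AT5G55180 at -0.97, AT4G36610 at -0.87, AT2G21100 at -0.80, AT4G24140 at -0.73 and Cpn60beta2 at -0.72. Among named rises it was positive for BCAT4, at 2.21, and ARPN, at 1.06. BCAT4 passed the filter only through its dez arrays, which favours a positive interaction.

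Of the named falls, AT4G37220 had 1.75, XTH19 1.72, AT4G16146 1.30, AT2G43535 0.94, TBL41 0.60 and AT4G32340 -0.87. AT4G37220 read only 7.74 to 11.6 on the dez arrays, so its interaction sets a wild-type fall against levels too dim to fall. AT4G16146 was also dim in dez, at 15.2 to 30.1. Among the list genes named in the report that did not pass in wild type, those with an interaction were PDF1.4 at 2.77, AT2G43530 at 2.25, AT3G12900 at 2.14, WRKY53 at 1.99, XTH18 at 1.77, STZ at 1.45, AT1G74770 at 1.20, GSTU25 at 1.07, AT1G47400 at 1.01, GSO1 at -0.51, EXPB3 at -0.84 and IAA29 at -1.68; other list genes also passed the interaction and are not named. Of these genes, PDF1.4, AT3G12900 and WRKY53 had wild-type means below the filter and were tested only because their dez arrays were brighter. Their positive interactions were thus favoured by the filter. Genes called in wild type were chosen on a difference that the interaction contains.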

How the results depend on the processing

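With each of the 8 arrays left out in turn, the count of probe sets called for zinc in wild type ranged from 49 to 106 (96 with all) and the count of those with an interaction from 35 to 73 (73 with all). Lipid transfer proteins higher ranged from 2 to 3 (4 with all), GDSL lipases from 2 to 4, and the counts were 4 for peroxidases and 3 for hydroxyproline-rich glycoproteins each time; in the first 3 families some of these counts hold other genes than with all arrays. With only the 4 wild-type arrays 26 probe sets, 2 lipid transfer proteins and 1 peroxidase were called, and with weights by genotype 62 and 2 lipid transfer proteins. Under scaling to the poly-A spikes the median over all tested probe sets was 0.08, and calls were 25 (20 of them higher), 13 with an interaction, 2 lipid transfer proteins, 1 peroxidase and 1 hydroxyproline-rich glycoprotein. With the 3′-5′ covariate 93 were called, 65 of them among the 96, and 2 lipid transfer proteins. A threshold of 0.01 gave 27 and 19 with an interaction, with 2 lipid transfer proteins and 2 GDSL lipases, and 0.10 gave 194 and 144. The cause of these changes was not tested.

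With the replicate block 116 were called, 90 of them among the 96, and 79 with the block and only the 4 wild-type arrays. The numbers are not stated to pair the pools, and differences between replicates 2 and 1 correlated with r = -0.36 between the wild-type groups and 0.07 between the dez groups (across probe sets, which are not independent). Crossing the wild-type numbers, chosen after seeing the data, gave 315 calls and 215 with an interaction. Other scalings (quantile, median), a pseudocount of 1 or 64, a filter at 40% or none, and the other priors gave between 69 and 110 calls. For the 39 called genes, 729 values under alternatives kept the call and 235 lost it; for other named genes 613 stayed uncalled and 6 passed. No named gene changed direction after a call. Dim probe sets are limited by intensity: differences of genes near the filter are understated, and genes under it were not tested.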
